A study of Mus musculus with 12 samples.

Results

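Hmgcs1, Sqle, Idi1, Insig1, Fdft1, Fdps and Lss were followed in the epileptic mouse hippocampus after lipopolysaccharide (LPS), a component of the outer membrane of Gram-negative bacteria. These 7 genes, of 27370 genes on the array and 18178 with a measured probe, were taken from a list of cholesterol genes by the gene name in the array files. All 15 of their probes passed the filter, which asked for a signal well above background on the 3 arrays of at least 1 group. The list was named for synthesis and uptake. Of its genes, 6 encode synthesis enzymes and Insig1 a regulator, and none encodes an uptake receptor, so they are called the synthesis genes here and uptake is described from other genes.

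Cells make cholesterol from acetyl-CoA in the endoplasmic reticulum through the mevalonate pathway, and in the brain, where lipoproteins of the blood are kept out by the blood-brain barrier, nearly all cholesterol is made locally, mainly by glia. When sterols run low, the transcription factor SREBP-2 is carried from the endoplasmic reticulum to the Golgi apparatus by its escort SCAP, is cleaved there and switches on the enzymes of the pathway. INSIG proteins hold SCAP back when sterols are plentiful, and oxysterols feed into the same switch.

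All mice, controls included, were male C57BL/6N aged 12 weeks with a unilateral injection of 50 nl of 20 mM kainate, a glutamate receptor agonist, into the left dorsal hippocampus, and had chronic recurrent seizures. A single intraperitoneal dose of LPS (100 µg/kg) or of saline followed, and whole hippocampi were taken after 4 h or 24 h, which gave the groups saline 4 h, LPS 4 h, saline 24 h and LPS 24 h with 3 samples each. The labels do not say which side was dissected, and no group lacked kainate. Apart from the count of 3 per group, nothing in the labels says that each sample is a separate animal. The p-values set a difference against the spread between samples within groups, estimated over all 12 arrays, which need not be that between animals. RNA of each sample was hybridised with the dye Cy3 to a one-colour Agilent array, and levels are given as log2 intensity relative to the 75th percentile of the array, so that 0 is that percentile and 1 unit is a doubling.

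The saline 4 h arrays stood apart. Their 75th percentile of intensity ran from 372 to 396, against 669 to 739 in LPS 4 h, 740 to 862 in saline 24 h and 722 to 955 in LPS 24 h. In the same order, 53.9 to 55.0%, 58.2 to 61.4%, 65.1 to 66.4% and 69.0 to 70.9% of probes were well above background. The 4 h arrays were scanned in one run and the 24 h arrays in another, so time and scan run cannot be told apart. Each of the 6 slides held 1 saline and 1 LPS array of the same time. At an adjusted p under 0.05, limma called 71.0% of 27681 probes at 4 h (31.6% higher and 39.4% lower after LPS) and 41.7% at 24 h (20.8% higher and 20.9% lower). Scaled on each array's median, the share of higher among called probes went from 44.5% to 32.8% at 4 h and from 49.8% to 29.9% at 24 h. The 2 saline groups differed in 79.5% of probes. Against this background a call on 1 gene is common, and each 4 h result of the 7 genes is given below against both saline groups.

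Markers of cell types moved between the same groups. As multiples of the array's 75th percentile, the summed level of 8 astrocyte markers ran from 587 to 603 with saline and 421 to 440 with LPS at 4 h, then 307 to 313 with saline and 339 to 343 with LPS at 24 h. Sums over 8 oligodendrocyte markers were 292 to 299, 248 to 254, 182 to 184 and 171 to 178, and those over 8 neuronal markers were 111 to 112, 132 to 135, 165 to 169 and 136 to 141. For 6 microglial markers the sums were 67.2 to 68.9, 44.1 to 46.2, 24.0 to 24.6 and 38.5 to 40.9, and for 6 endothelial markers 48.4 to 49.2, 17.6 to 17.8, 24.2 to 25.7 and 30.4 to 33.1. Blood markers (3 genes) summed to 265 to 273, 102.3 to 106.9, 117 to 126 and 63.2 to 64.6, thalamic markers (5 genes) to 14.6 to 15.2, 10.1 to 10.3, 4.25 to 4.28 and 6.53 to 6.65, and choroid plexus markers (4 genes) to 29.7 to 31.7, 27.2 to 28.2, 23.1 to 24.3 and 33.5 to 34.4. Of 6 genes that mark hippocampal neurons, among them Prox1 of granule cells, 5 were well above background on all arrays at 4 h and 6 at 24 h, and their sums were 143 to 147, 72.1 to 74.4, 49.6 to 50.6 and 52.0 to 53.8. Such sums are carried by the bright members of a list, and single markers went both ways. At 4 h 3 astrocyte markers were higher and 4 lower (median difference -0.07), 3 oligodendrocyte markers higher and 4 lower (median 0.00), 3 neuronal markers higher and 1 lower (median 0.11), and 2 hippocampal markers higher and 1 lower (median 0.04), the lower being Bok at -1.22. Of the microglial markers 1 was higher and 4 lower (median -0.59), and all 6 endothelial markers were lower (median -1.69). At 24 h 5 astrocyte markers were higher and 2 lower (median 0.18), 0 oligodendrocyte markers higher and 2 lower (median -0.05), 0 neuronal markers higher and 5 lower (median -0.32), and 1 hippocampal marker higher and 3 lower (median -0.11). Of the microglial markers 5 were higher and 1 lower (median 0.70), and 5 endothelial markers were higher and 0 lower (median 0.47). No marker was at 0. The part of cell makeup in the results below was not tested, and in whole tissue fewer cells of a type and less RNA per cell cannot be told apart.

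The sequence around the start site was available for 4 of the 7 genes (RefSeq, GRCm38.p6, 250 bases before to 50 after the start site). The window is fixed and was not chosen by known SREBP-2 sites. It is shown because these genes share a known regulator. Capitals mark matches on either strand to the sterol regulatory element TCACNCCAC, the CCAAT box bound by NF-Y (CCAAT), the E-box CACGTG and the GC box GGGCGG bound by Sp1. None of these matches overlapped another.
Hmgcs1 promoter (chr13:119690101-119690400, + strand): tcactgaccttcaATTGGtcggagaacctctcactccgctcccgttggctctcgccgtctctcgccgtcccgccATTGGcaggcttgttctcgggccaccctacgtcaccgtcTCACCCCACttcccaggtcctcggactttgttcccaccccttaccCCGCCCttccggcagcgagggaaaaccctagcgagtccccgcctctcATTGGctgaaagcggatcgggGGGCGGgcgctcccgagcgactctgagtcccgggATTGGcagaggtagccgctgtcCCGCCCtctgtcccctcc
Idi1 promoter (chr13:8885356-8885655, + strand): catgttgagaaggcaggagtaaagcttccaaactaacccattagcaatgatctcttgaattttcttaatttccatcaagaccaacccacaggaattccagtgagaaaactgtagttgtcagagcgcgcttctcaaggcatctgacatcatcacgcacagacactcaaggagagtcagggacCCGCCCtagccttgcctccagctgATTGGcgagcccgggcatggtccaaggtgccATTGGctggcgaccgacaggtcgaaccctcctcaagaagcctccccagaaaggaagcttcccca
Lss promoter (chr10:76531355-76531654, + strand): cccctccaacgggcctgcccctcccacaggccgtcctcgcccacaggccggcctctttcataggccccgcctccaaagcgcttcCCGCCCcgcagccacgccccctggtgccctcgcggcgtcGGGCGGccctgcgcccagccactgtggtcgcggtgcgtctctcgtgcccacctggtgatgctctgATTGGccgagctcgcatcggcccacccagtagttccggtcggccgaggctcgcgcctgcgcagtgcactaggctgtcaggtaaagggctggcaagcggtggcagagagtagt
Insig1 promoter (chr5:28071162-28071461, + strand): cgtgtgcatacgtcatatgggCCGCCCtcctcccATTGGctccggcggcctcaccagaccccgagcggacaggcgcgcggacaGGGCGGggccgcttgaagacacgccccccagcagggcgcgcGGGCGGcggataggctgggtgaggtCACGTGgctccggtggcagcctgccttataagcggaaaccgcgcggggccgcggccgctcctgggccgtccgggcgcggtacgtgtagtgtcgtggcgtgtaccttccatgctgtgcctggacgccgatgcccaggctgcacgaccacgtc

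The Hmgcs1 window held 1 match to the sterol element, which starts at position -137 from the start site and is found in 1.24% of 32841 promoters of the same length. The windows of Idi1, Lss and Insig1 held no match to it. Hmgcs1 also held 4 CCAAT boxes, against 2 for Idi1 and 1 each for Lss and Insig1. All 4 windows held a CCAAT box and a GC box, which 37.4% and 35.7% of promoters hold. Insig1 held the E-box, which 7.15% of promoters hold. A match is a description of letters, and the letters say nothing of binding in these samples. No promoter was available for Sqle, Fdft1 and Fdps, all lower at 4 h at their brightest probes, so the windows cannot be set against the response.

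Of the 15 probes, 4 align over more than their 60 bases on the mm9 build that the files use, so that their sequence bridges an intron and reads spliced RNA. They are shown because probes of the same gene disagreed in these data, and for Idi1 it is the bridging probe that did so.
Idi1 probe A_52_P441634 (chr13:8886802-8887206, + strand): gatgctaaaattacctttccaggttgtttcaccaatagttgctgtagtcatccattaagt
Fdps probe A_51_P379798 (chr3:88898812-88898952, - strand): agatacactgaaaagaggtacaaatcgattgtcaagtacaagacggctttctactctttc
Fdft1 probe A_51_P485946 (chr14:63765769-63770009, - strand): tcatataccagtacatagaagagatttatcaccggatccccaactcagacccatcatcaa
Insig1 probe A_52_P393392 (chr5:28401146-28401618, + strand): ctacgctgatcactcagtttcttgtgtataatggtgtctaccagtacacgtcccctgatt

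The skipped stretch was 345 bases for Idi1, 81 for Fdps, 4181 for Fdft1 and 413 for Insig1. In 5 of the 6 genes with several probes, the brightest probe lay nearest the 3′ end, Fdft1 being the exception.

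At 4 h the synthesis genes went both ways. Among the 7 brightest probes, Hmgcs1, Insig1 and Lss were higher after LPS and Fdps, Sqle, Fdft1 and Idi1 lower. In each case the 3 LPS and the 3 saline arrays did not overlap. Of the brightest probes of all 18178 genes, 5321 were higher and 8092 lower. With the probes of a gene averaged, Idi1 was higher (0.61) and Lss lower (-0.16). Over all 15 probes, 6 were higher, 7 lower and 2 neither at 4 h, the Hmgcs1 probe A_52_P119039 among the higher although below background, against 71.0% of all probes called, and 13 did not overlap, against 74.6% of all probes. Their median difference was -0.18 and that of all probes -0.08. At 24 h 1 probe was higher, 7 lower and 7 neither, against 41.7% of all probes called, and 9 did not overlap, against 53.7%. The median difference at 24 h was -0.05, that of all probes 0.00. The plot of the brightest probes gives the level on each array.

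**Figure D1:**
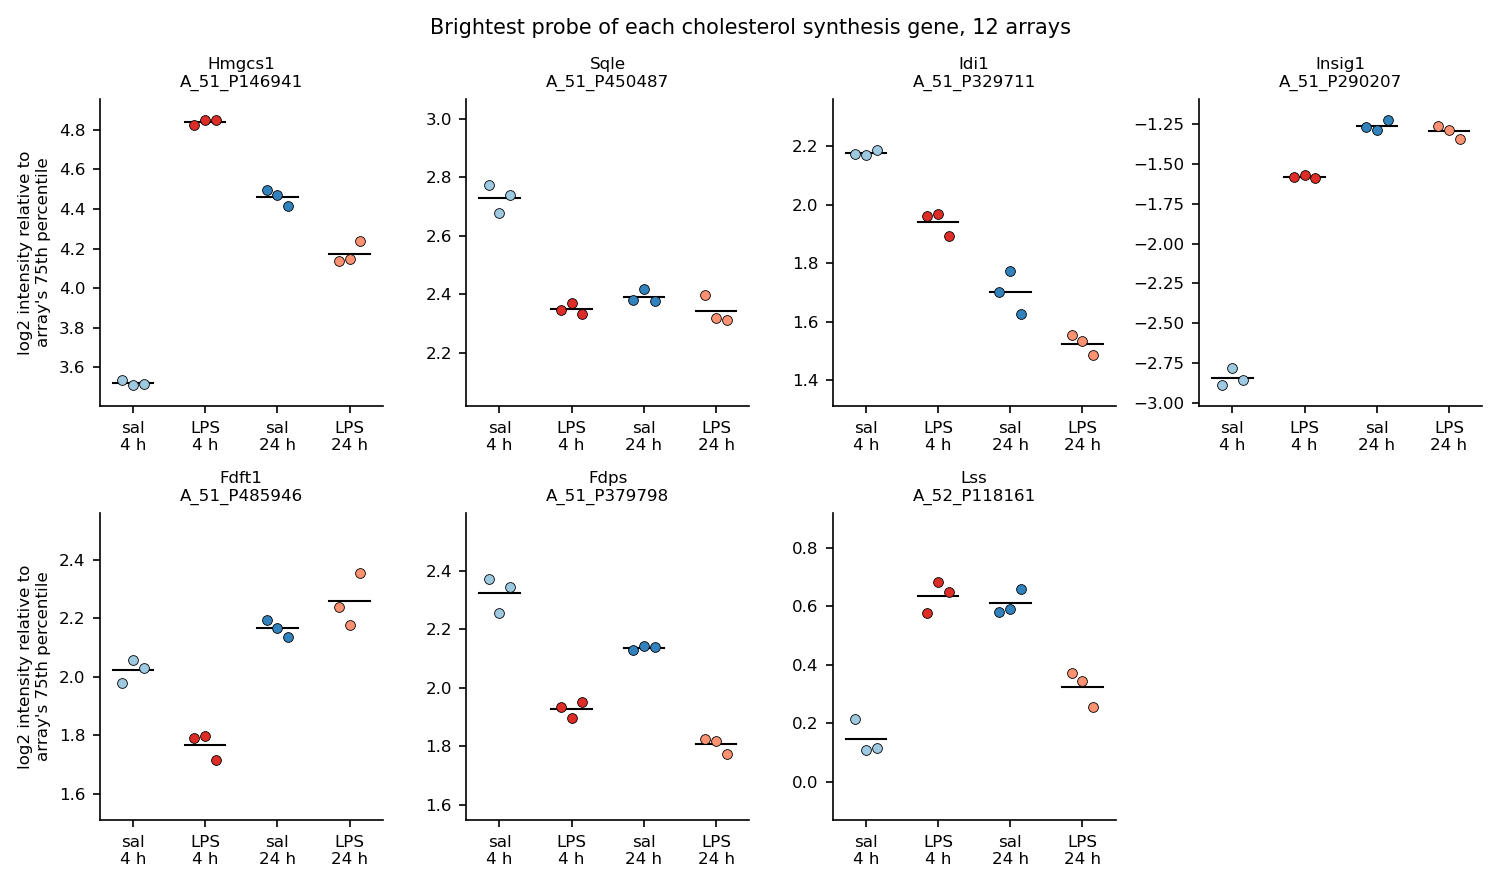
Log2 intensity relative to the array's 75th percentile (y axis) of the brightest probe of each of the 7 genes in saline (sal) and LPS at 4 h and 24 h. Each point is 1 array and the line is the group mean of 3; the y axes differ and none starts at 0. Hmgcs1 and Insig1 were lowest in saline 4 h, and Fdps was lower in LPS than in saline at both times.

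Hmgcs1 encodes the cytosolic HMG-CoA synthase, which makes HMG-CoA, the precursor of mevalonate. Its brightest probe, A_51_P146941 (chr13_random:114807-114866), read 3.53, 3.51 and 3.51 with saline and 4.83, 4.85 and 4.85 with LPS at 4 h, then 4.49, 4.47 and 4.42 with saline and 4.14, 4.15 and 4.24 with LPS at 24 h. LPS 4 h was the highest group and saline 4 h the lowest, with no overlap between any of the 4 groups. Hmgcs1 thus rose by 1.32 ± 0.03 (SE) at 4 h, 2.50-fold (limma, adjusted p = 1.14e-09), and fell by 0.28 ± 0.03 at 24 h, 1.22-fold (adjusted p = 1.42e-04). With normexp background correction the 24 h difference did not pass, at -0.24 (limma, adjusted p = 0.0870).

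The next Hmgcs1 probe, A_52_P388072, lies 2860 bases upstream of the brightest and was far dimmer. It read -3.75, -4.06 and -3.92 with saline and -1.77, -1.81 and -1.70 with LPS at 4 h, then -2.14, -2.27 and -2.17 with saline and -2.65, -2.71 and -2.68 with LPS at 24 h. The order of the groups was that of the brightest probe. The difference was 2.14 ± 0.07 at 4 h (limma, adjusted p = 4.86e-09) and -0.48 ± 0.07 at 24 h (adjusted p = 5.11e-04). With normexp background correction the 4 h difference was 0.96, so the size of the rise at this dim probe rests on the correction, while the brightest probe gave 1.35. The third probe, A_52_P119039, was below background on all 6 arrays at 4 h and gives no fold there. At 24 h it was well above background on 2 of 3 saline and 3 of 3 LPS arrays, with a difference of 0.14 ± 0.11 (limma, adjusted p = 0.340).

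Idi1 isomerises isopentenyl diphosphate, the building block of all isoprenoids, to dimethylallyl diphosphate. Its brightest probe, A_51_P329711 (chr13:8891386-8891445), read 2.18, 2.17 and 2.19 with saline and 1.96, 1.97 and 1.89 with LPS at 4 h, then 1.70, 1.77 and 1.63 with saline and 1.56, 1.53 and 1.49 with LPS at 24 h. LPS was below saline at both times, by 0.24 ± 0.04 at 4 h (limma, adjusted p = 4.54e-04) and 0.18 ± 0.04 at 24 h (adjusted p = 0.00670). In the deposited matrix neither passed, at -0.09 (adjusted p = 0.244) and -0.16 (adjusted p = 0.0971), nor with normexp, at -0.21 (adjusted p = 0.0752) and -0.16 (adjusted p = 0.281).

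The intron-bridging Idi1 probe shown above went the other way at 4 h. It read -3.84, -3.93 and -3.90 with saline and -2.38, -2.48 and -2.45 with LPS at 4 h, then -1.80, -1.71 and -1.63 with saline and -2.23, -2.18 and -2.21 with LPS at 24 h. It was 1.46 ± 0.05 higher after LPS at 4 h, 2.74-fold (limma, adjusted p = 4.24e-09), and 0.50 ± 0.05 lower at 24 h (adjusted p = 3.01e-05). With normexp the 4 h difference was 0.52. Probes of 1 gene were called in opposite directions for 2 of the 6 multi-probe genes at 4 h, Idi1 and Lss, and for 17.1% of 6776 such genes on the array. At 24 h no Idi1 probes opposed each other, and both were lower.

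Fdps makes farnesyl diphosphate, the branch point towards sterols and protein prenylation. Its brightest probe, the intron-bridging A_51_P379798, read 2.37, 2.26 and 2.35 with saline and 1.93, 1.90 and 1.95 with LPS at 4 h, then 2.13, 2.14 and 2.14 with saline and 1.83, 1.82 and 1.77 with LPS at 24 h. Every LPS array was below every saline array of either time. Fdps fell by 0.40 ± 0.04 at 4 h, 1.32-fold (limma, adjusted p = 3.62e-06), and by 0.33 ± 0.04 at 24 h, 1.26-fold (adjusted p = 5.98e-05). The 2 falls differed by 0.07 ± 0.05 (limma, adjusted p = 0.275). The second probe, A_52_P593965, lies 4214 bases upstream and gave -0.09 ± 0.07 at 4 h (limma, adjusted p = 0.247) and -0.21 ± 0.07 at 24 h (adjusted p = 0.0297). That 24 h call was lost without any 1 of 4 arrays (saline 24 h replicate 2 or any LPS 24 h replicate), with adjusted p from 0.0585 to 0.0969, and with normexp (-0.14, adjusted p = 0.522).

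Fdft1, squalene synthase, takes the first step committed to sterols by joining farnesyl diphosphate molecules to squalene. Its brightest probe, the bridging A_51_P485946, read 1.98, 2.06 and 2.03 with saline and 1.79, 1.80 and 1.72 with LPS at 4 h, then 2.19, 2.17 and 2.14 with saline and 2.24, 2.18 and 2.35 with LPS at 24 h. LPS was lower at 4 h and overlapped with saline at 24 h. The difference was -0.25 ± 0.05 at 4 h (limma, adjusted p = 7.43e-04; -0.11 with adjusted p = 0.0984 in the deposited matrix) and 0.09 ± 0.05 at 24 h (adjusted p = 0.150, 95% interval -0.01 to 0.20).

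The most 3′ Fdft1 probe, A_52_P136138 (chr14:63764562-63764621), had the widest range of the 15. It read -2.35, -2.32 and -2.26 with saline and -4.10, -4.14 and -4.14 with LPS at 4 h, then -5.37, -5.05 and -5.65 with saline and -5.32, -5.17 and -4.91 with LPS at 24 h. The saline 4 h group stood far above the other 3. The difference was -1.81 ± 0.14 at 4 h (limma, adjusted p = 1.34e-06), -0.89 with normexp, and 0.23 ± 0.14 at 24 h (adjusted p = 0.228). Without saline 24 h replicate 2 the 24 h difference was 0.38 (limma, adjusted p = 0.0322).

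Sqle, squalene epoxidase, carries out the first oxygen-dependent and a rate-limiting step. Its single probe, A_51_P450487 (chr15:59162384-59162443), read 2.77, 2.68 and 2.74 with saline and 2.35, 2.37 and 2.33 with LPS at 4 h, then 2.38, 2.42 and 2.37 with saline and 2.40, 2.32 and 2.31 with LPS at 24 h. Saline 4 h alone was high, and the other 3 groups lay together. Sqle fell by 0.38 ± 0.04 at 4 h, 1.30-fold (limma, adjusted p = 4.91e-06). At 24 h the difference was -0.05 ± 0.04 (adjusted p = 0.321, 95% interval -0.13 to 0.03).

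Lss, lanosterol synthase, closes the rings of squalene epoxide to lanosterol, the first sterol. Its brightest probe, A_52_P118161 (chr10:76019513-76019572), read 0.21, 0.11 and 0.11 with saline and 0.58, 0.68 and 0.65 with LPS at 4 h, then 0.58, 0.59 and 0.66 with saline and 0.37, 0.35 and 0.26 with LPS at 24 h. At this probe LPS was higher than saline at 4 h and lower at 24 h. The array's annotation ties it to another transcript record than the other Lss probes. The difference was 0.49 ± 0.05 at 4 h, 1.40-fold (limma, adjusted p = 5.91e-06), and -0.29 ± 0.05 at 24 h, 1.22-fold lower (adjusted p = 8.84e-04; -0.27 with adjusted p = 0.0531 with normexp).

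The other Lss probes, 3521 and 6104 bases upstream, gave the opposite signs. A_51_P296487 ran from -2.94 to -2.74 with saline and -3.55 to -3.32 with LPS at 4 h, then -2.69 to -2.56 with saline and -2.45 to -2.43 with LPS at 24 h. Its difference was -0.60 ± 0.07 at 4 h (limma, adjusted p = 2.04e-05) and 0.17 ± 0.07 at 24 h (adjusted p = 0.0644). A_52_P168028 differed by -0.38 ± 0.07 at 4 h (limma, adjusted p = 7.93e-04) and by 0.20 ± 0.07 at 24 h (adjusted p = 0.0481). At 24 h Lss was the 1 of 6 multi-probe genes called both ways, against 3.1% of genes on the array, and the A_52_P168028 call was lost in most of the other settings tried, quantile normalization (adjusted p = 0.189) and the deposited matrix (adjusted p = 0.825) among them, as it was without any 1 of 9 arrays (adjusted p from 0.0504 to 0.162). A_51_P296487 gained a 24 h call without saline 4 h replicate 2 (limma, adjusted p = 0.04998) or LPS 4 h replicate 1 (adjusted p = 0.0383). With normexp the 4 h calls of both were lost, at -0.38 (limma, adjusted p = 0.0986) and -0.24 (adjusted p = 0.402), and so were their differences between times (adjusted p = 0.131 and 0.498). In the deposited matrix A_52_P168028 did not pass at 4 h (-0.18, adjusted p = 0.0707). With the probes averaged, Lss differed by -0.16 at 4 h and 0.03 at 24 h. The plot of the 8 further probes shows these levels.

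**Figure D2:**
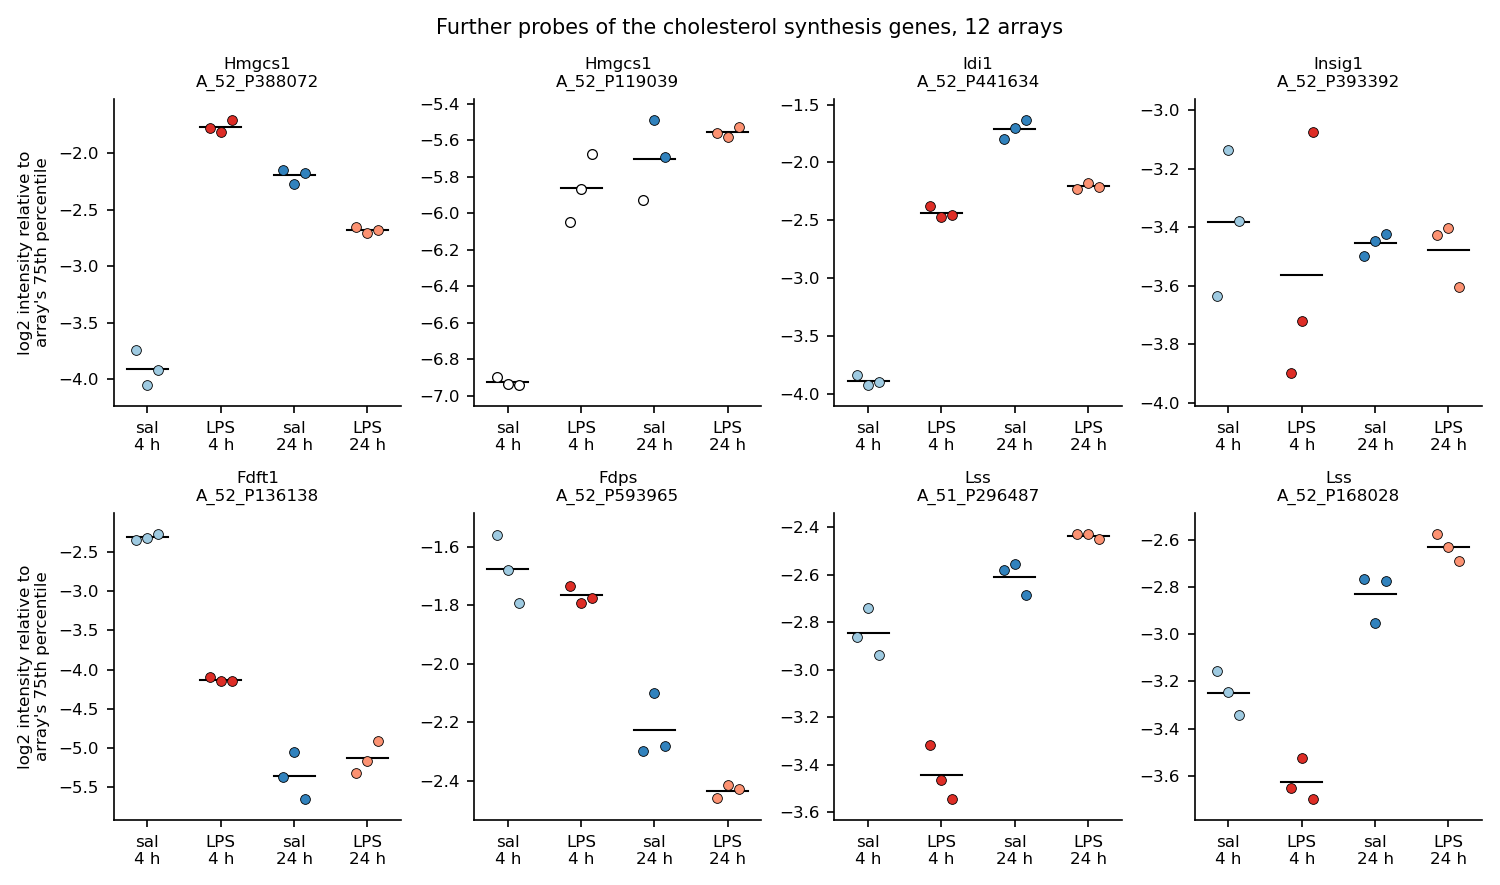
Log2 intensity relative to the array's 75th percentile (y axis) of the 8 dimmer probes of the same genes, by group. Each point is 1 array, the line is the mean of 3, and white points are arrays on which the probe was not well above background, which at 4 h holds for all 6 arrays of Hmgcs1 A_52_P119039. Idi1 A_52_P441634 rose and Lss A_51_P296487 fell at 4 h, each against the brightest probe of its gene.

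Insig1 holds the SREBP escort in the endoplasmic reticulum and is itself a target of SREBP. Its brightest probe, A_51_P290207 (chr5:28404246-28404305), read -2.89, -2.78 and -2.86 with saline and -1.58, -1.57 and -1.59 with LPS at 4 h, then -1.27, -1.29 and -1.22 with saline and -1.26, -1.28 and -1.34 with LPS at 24 h. Saline 4 h was low, LPS 4 h intermediate, and the 24 h groups overlapped above both. Insig1 rose by 1.26 ± 0.04 at 4 h, 2.40-fold (limma, adjusted p = 2.14e-09), 0.66 with normexp, and differed by -0.04 ± 0.04 at 24 h (adjusted p = 0.474, 95% interval -0.12 to 0.05). The bridging probe shown above ran from -3.90 to -3.07 over the LPS 4 h arrays and gave -0.18 ± 0.19 at 4 h (limma, adjusted p = 0.425) and -0.02 ± 0.19 at 24 h (adjusted p = 0.943). Without LPS 4 h replicate 3 its 4 h difference was -0.43 (limma, adjusted p = 0.0176).

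**Figure D3:**
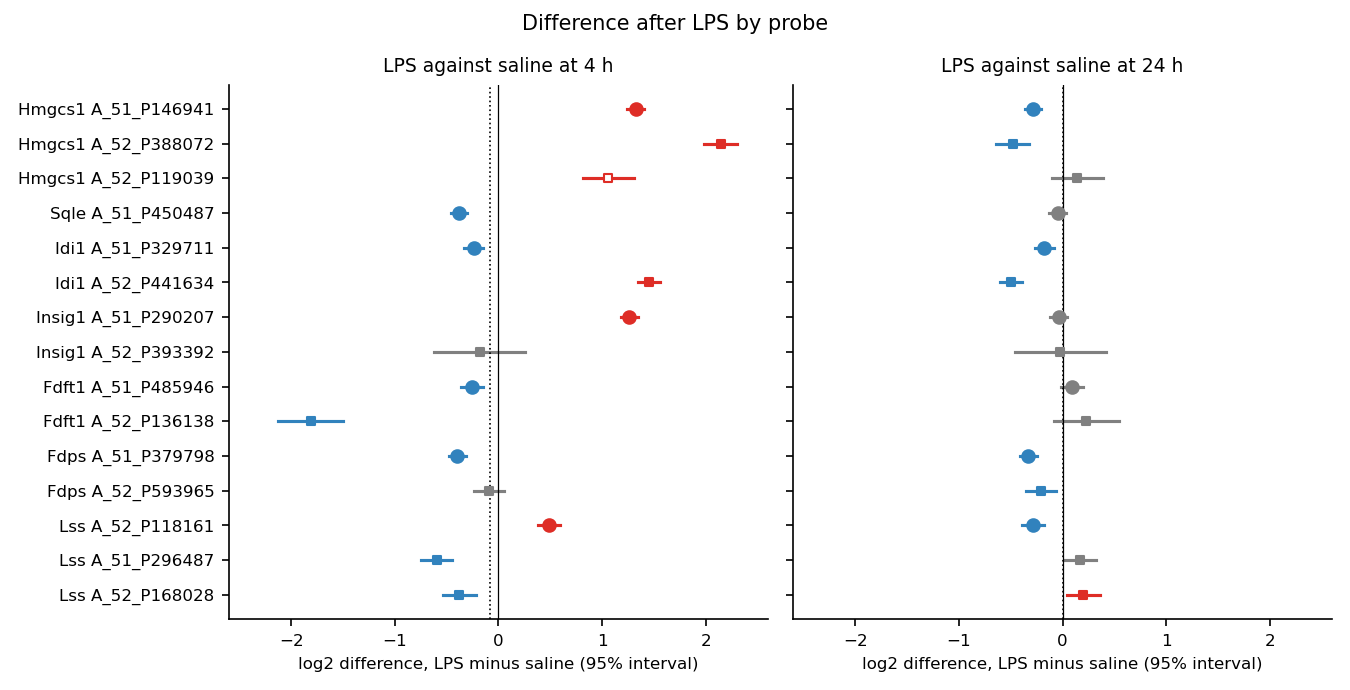
Log2 difference between LPS and saline (x axis) with its 95% interval from limma for each of the 15 probes, at 4 h (left) and 24 h (right). Red marks adjusted p under 0.05 and higher, blue lower and grey neither; circles are brightest probes, squares the others, the white square is a probe below background in both groups, and the dotted line is the median of all probes. At 4 h the probes spread from -1.81 to 2.14, at 24 h from -0.50 to 0.23.

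The response at 24 h differed from that at 4 h for 11 of the 15 probes, 5 higher and 6 lower, where 65.9% of all probes were called by the same test. With normexp background correction 3 were higher and 5 lower, and 10147 of all 27681 probes were called. The brightest probes of Hmgcs1, Insig1 and Lss gave a lower response at 24 h than at 4 h (by 1.61, 1.30 and 0.78), and those of Sqle and Fdft1 a higher one (by 0.33 and 0.35). Idi1 and Fdps did not pass for their brightest probes, at 0.06 ± 0.06 (limma, adjusted p = 0.379) and 0.07 ± 0.05 (adjusted p = 0.275). In this test, too, time cannot be told apart from the scan run.

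The 2 saline groups differed for 14 of the 15 probes, 9 higher and 5 lower at 24 h, where 79.5% of all probes were called, so the 4 h values were also set against saline 24 h. Of 6 probes higher at 4 h, 2 were higher against saline 24 h as well, both of Hmgcs1. Its brightest probe was 0.38 ± 0.03 above saline 24 h (limma, adjusted p = 4.61e-06) and A_52_P388072 was 0.43 ± 0.07 above (adjusted p = 3.72e-04). Insig1 turned to -0.32 ± 0.04 (limma, adjusted p = 2.65e-05) and the bridging Idi1 probe to -0.73 ± 0.05 (adjusted p = 4.29e-07). The brightest Lss probe differed by 0.02 ± 0.05 (adjusted p = 0.648). Insig1 A_52_P393392, called neither way at 4 h, differed by -0.11 ± 0.19 (limma, adjusted p = 0.633). Fdps A_52_P593965, also called neither way, was 0.46 ± 0.07 higher against saline 24 h (limma, adjusted p = 1.23e-04).

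Of 7 probes lower at 4 h, 4 were lower against saline 24 h as well. These were the brightest probes of Fdps (-0.21 ± 0.04, limma, adjusted p = 4.13e-04) and Fdft1 (-0.40 ± 0.05, adjusted p = 3.48e-05) and the dimmer Lss probes (-0.83 and -0.80). Sqle differed by -0.04 ± 0.04 (limma, adjusted p = 0.311). The brightest Idi1 probe turned to 0.24 ± 0.04 (limma, adjusted p = 4.60e-04) and the most 3′ Fdft1 probe to 1.23 ± 0.14 (adjusted p = 2.61e-05). Among the brightest probes, Hmgcs1 higher and Fdps and Fdft1 lower were thus the 4 h differences that kept their direction and call against either saline group. For Fdft1 the call against saline 4 h was lost in the deposited matrix (-0.11, limma, adjusted p = 0.0984). The dimmer probes of Fdps and Fdft1 were higher against saline 24 h, as given above.

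**Figure D4:**
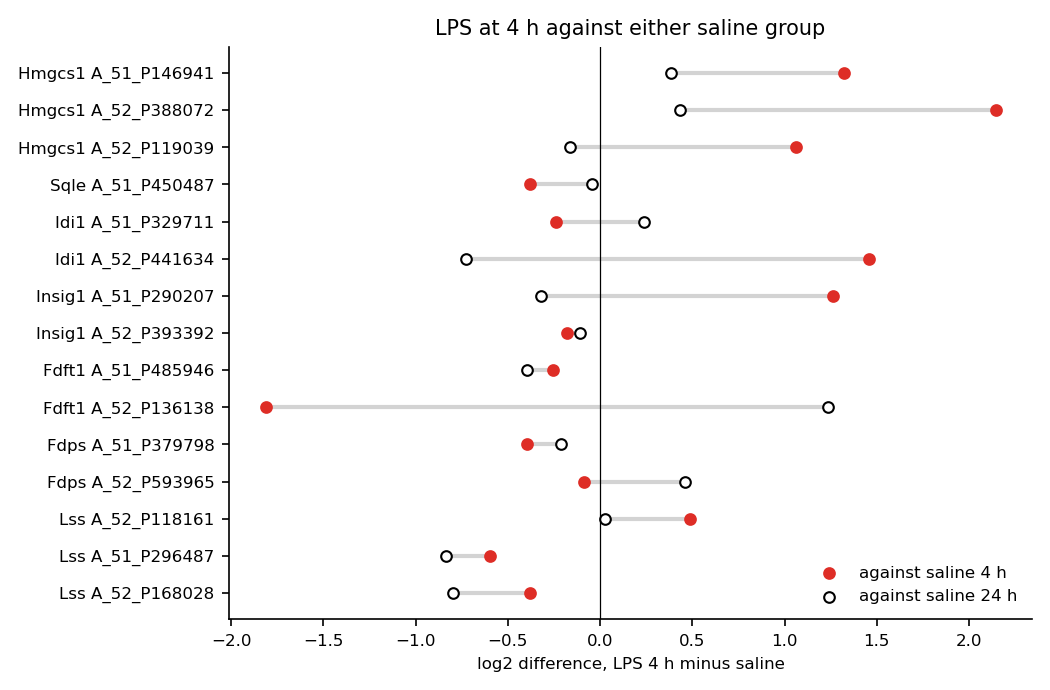
Log2 difference of LPS 4 h (x axis) against saline 4 h (red) and against saline 24 h (white) for each of the 15 probes, each point a difference of means of 3 arrays. The points of Hmgcs1 A_51_P146941 both lie above 0, at 1.32 and 0.38, while those of Insig1 A_51_P290207 lie on either side, at 1.26 and -0.32.

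The other genes of the pathway were described from 6 lists with 59 genes, 1 brightest probe a gene. Of 15 other synthesis enzymes, 2 were higher, 7 lower and 6 neither at 4 h (median -0.14), and 5 higher, 3 lower and 7 neither at 24 h (median 0.03), against 31.6% of all probes higher and 39.4% lower at 4 h and 20.8% and 20.9% at 24 h. Lbr, a sterol reductase that is also a receptor of the nuclear lamina, rose by 0.83 ± 0.03 at 4 h (limma, adjusted p = 7.57e-09), with 0.86 against saline 24 h. Acat2, a thiolase at the head of the pathway, was 0.86 ± 0.07 lower (adjusted p = 3.03e-06), but 0.59 higher against saline 24 h. At 24 h Msmo1, which removes methyl groups from sterols, fell by 0.24 ± 0.04 (limma, adjusted p = 5.76e-04) and the sterol reductase Tm7sf2 fell by 0.30 ± 0.06 (adjusted p = 0.00199). With normexp Msmo1 did not pass (-0.25, limma, adjusted p = 0.0725).

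Among 8 measured genes of sterol sensing, 1 was higher and 6 lower at 4 h (median -0.17), and 3 higher and 2 lower at 24 h (median -0.04). Mbtps2 did not pass the filter. At 4 h Nr1h2, the oxysterol receptor LXR beta, rose by 0.51 ± 0.03 (limma, adjusted p = 1.82e-07), with 0.03 against saline 24 h. Mylip, a ubiquitin ligase of lipoprotein receptors, was 0.65 ± 0.03 lower (adjusted p = 9.79e-08) and Mbtps1, a protease that cleaves SREBP, 0.73 ± 0.05 lower (adjusted p = 3.24e-07), but both were higher against saline 24 h, by 1.21 and 0.44. At 24 h Nr1h3, LXR alpha, rose by 0.52 ± 0.06 (limma, adjusted p = 1.60e-04) and Srebf1, the gene of SREBP-1, by 0.25 ± 0.03 (adjusted p = 2.77e-04), while Insig2, the relative of Insig1, fell by 0.21 ± 0.03 (adjusted p = 3.51e-04). With normexp Srebf1 (0.22, limma, adjusted p = 0.109) and Insig2 (-0.24, adjusted p = 0.242) did not pass, nor did Insig2 in the deposited matrix (adjusted p = 0.132).

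Among 10 genes of uptake and intracellular handling, 3 were higher and 6 lower at 4 h (median -0.26), and 4 higher and 2 lower at 24 h (median 0.05). The brightest probes of all 18178 genes had 5321 higher and 8092 lower at 4 h (median -0.15), and 4242 and 4139 at 24 h (median 0.00). At 4 h the sterol carrier Stard4 was 0.51 ± 0.04 higher (limma, adjusted p = 1.01e-06) and the lysosomal exporter Npc1 0.32 ± 0.03 lower (adjusted p = 1.61e-06), with opposite signs against saline 24 h (-0.73 and 0.16). With its probes averaged Stard4 did not pass, at 0.04 (limma, adjusted p = 0.761). At 24 h Npc2, which hands lysosomal cholesterol to Npc1, rose by 0.44 ± 0.04 (limma, adjusted p = 2.24e-05), the lysosomal lipase Lipa by 0.52 ± 0.07 (adjusted p = 3.65e-04) and the lipoprotein receptor Lrp1 by 0.34 ± 0.04 (adjusted p = 2.33e-04). With normexp Lrp1 did not pass (0.31, limma, adjusted p = 0.148). The summed level of 6 microglial markers was higher in the LPS arrays at this time, as given above, and its part in these rises was not tested.

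Of 9 genes of efflux, esterification and oxysterols, 4 were higher and 5 lower at 4 h (median -0.34), and 4 higher and 2 lower at 24 h (median 0.00). The brightest probes of all 18178 genes had 5321 higher and 8092 lower at 4 h (median -0.15), and 4242 and 4139 at 24 h (median 0.00). Soat1, which esterifies cholesterol for storage, rose by 1.49 ± 0.03 at 4 h (limma, adjusted p = 3.62e-10) and by 0.28 ± 0.03 at 24 h (adjusted p = 7.56e-05). The exporter Abca1 rose by 1.17 ± 0.03 at 4 h (limma, adjusted p = 9.87e-10) and by 0.73 ± 0.03 at 24 h (adjusted p = 9.04e-08). Ch25h, which makes the oxysterol 25-hydroxycholesterol, rose by 1.01 ± 0.03 at 4 h (limma, adjusted p = 5.02e-09) and by 0.86 ± 0.03 at 24 h (adjusted p = 6.95e-08). At 4 h these 3 were also higher against saline 24 h, by 1.09, 1.15 and 3.66, but LPS 24 h lay 1.79 below saline 4 h for Ch25h.

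Of 10 genes of fatty acid synthesis, known targets of SREBP-1, 2 were higher and 5 lower at 4 h (median -0.10), and 1 higher and 3 lower at 24 h (median -0.09). For this list and the next, the brightest probes of all 18178 genes had 5321 higher and 8092 lower at 4 h (median -0.15). At 24 h they had 4242 higher and 4139 lower (median 0.00). The desaturase Scd1 rose by 0.85 ± 0.05 at 4 h (limma, adjusted p = 1.95e-07), the desaturase Fads2 fell by 0.52 ± 0.04 (adjusted p = 1.37e-06), and Me1, malic enzyme, was 0.62 ± 0.05 lower (adjusted p = 7.99e-07) but 0.20 higher against saline 24 h. At 24 h Fasn, fatty acid synthase, fell by 0.15 ± 0.03 (limma, adjusted p = 0.00163), the desaturase Scd2 by 0.14 ± 0.04 (adjusted p = 0.0188), and Acaca, acetyl-CoA carboxylase, was 0.21 ± 0.05 higher (adjusted p = 0.0124). None of these 3 passed with normexp (limma, adjusted p = 0.194, 0.213 and 0.749) or in the deposited matrix (adjusted p = 0.0583, 0.100 and 0.405). With quantile normalization Scd2 (-0.10, limma, adjusted p = 0.0900) and Acaca (0.16, adjusted p = 0.0527) did not pass either, nor did Acaca with median scaling (0.11, adjusted p = 0.210) or its probes averaged (adjusted p = 0.314). Scd2 also lost its call with the 6 arrays alone (limma, adjusted p = 0.0742), with a slide block (adjusted p = 0.0563), and without saline 24 h replicate 2 or 3 or LPS 24 h replicate 2 (adjusted p from 0.0535 to 0.0703). Of 6 genes of the isoprenoid branches that leave the pathway before squalene, 2 were higher and 3 lower at 4 h (median -0.15) and 0 higher and 1 lower at 24 h (median -0.09). Coq2 of ubiquinone synthesis was 0.64 ± 0.05 lower at 4 h (limma, adjusted p = 8.43e-07) and Fnta, a subunit of prenyl transferases, 0.90 ± 0.13 lower (adjusted p = 1.06e-04), with 0.00 and -0.09 against saline 24 h. Pggt1b, a geranylgeranyl transferase subunit and among the 2 counted higher, was called at 4 h (limma, adjusted p = 9.62e-07). It was not well above background on any saline 4 h array and gives no fold, and its call was lost with normexp (adjusted p = 0.955). At 24 h Dhdds, of dolichol synthesis, fell by 0.18 ± 0.04 (limma, adjusted p = 0.00436; adjusted p = 0.147 with normexp).

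**Figure D5:**
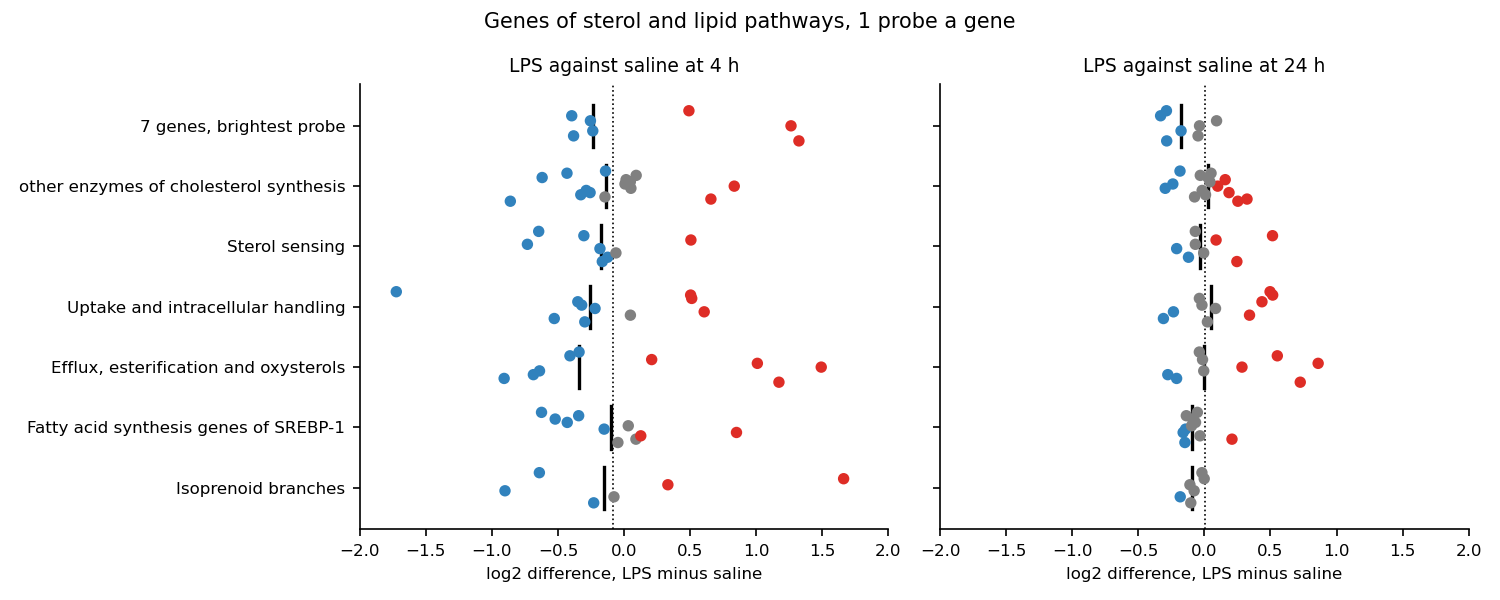
Log2 difference between LPS and saline (x axis) at 4 h (left) and 24 h (right) for the brightest probe of the 7 synthesis genes and of the genes of 6 lists. Each point is 1 gene (red higher, blue lower, grey neither at adjusted p under 0.05), the black bar is the list's median and the dotted line the median of all probes. The median of the 7 genes was -0.24 at 4 h and -0.18 at 24 h, and each list at 4 h held genes on both sides of 0. That of the brightest probes of all genes was -0.15 at 4 h and 0.00 at 24 h.

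The mean profile of the 7 genes (brightest probes, each centred on its own mean) was -0.18 with saline and 0.08 with LPS at 4 h, then 0.13 with saline and -0.03 with LPS at 24 h. The 7 genes did not share this profile. Correlations between pairs of them over the 12 arrays ran from -0.95 (Sqle and Insig1) to 0.92 (Hmgcs1 and Lss). Values were not scaled by their spread, so genes with a wide range, such as Hmgcs1 and Insig1, weigh more in the mean. Among 15006 other genes, those most like this profile by Pearson correlation over the 12 arrays were Rprml (0.994), Nrip3 (0.991), Scoc (0.991), Olfml2b (0.987), Mal2 (0.987) and Dgkh (0.983). The 12 arrays fall into 4 groups and share the scaling, so the correlation reflects mainly the order of the group means. Rprml, for example, was 1.92 with saline and 2.52 with LPS at 4 h, then 2.68 with saline and 2.28 with LPS at 24 h.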

How the data were processed

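RNA of 12 samples was measured on one-colour Agilent arrays with 45018 spots. The deposited array files hold fluorescence intensity. They were made with Agilent Feature Extraction (version 10.7.3.1 per the file headers), and the submitters' processing notes name version 9.1. In the deposited matrix values are on a log2 scale, with array medians from 6.979 to 6.986, and log2 values recomputed here with normexp (offset 50) and quantile normalization correlated with it at 0.99995 or above, with a largest difference of 0.701. Its exact normalization is not given in the sources used here.

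Processed intensity was taken as log2 and each array's 75th percentile was subtracted. Control spots and 926 outlier spots, none of a probe of the 7 genes, were left out, and repeated spots averaged. Of 41174 probes, 27681 were well above background on the 3 arrays of at least 1 group. The 4 group means were fitted over 12 arrays with limma 3.58.1 in R 4.3.3, two-sided, with Benjamini-Hochberg adjustment over all 27681 probes and a threshold of 0.05, and the procedure was tested on simulated data. Intervals are 95%, and their width depends on the number of arrays and on the spread between them. Each probe was tested on its own, and genes outside the 7 by their brightest probe. Positions are those of the files (mm9). Probes were named by RefSeq accession (27479), symbol (5478), synonym (679) or the name in the files (7538). Named from each list were up to 3 called genes per LPS comparison with the smallest adjusted p. A few results that this rule and the lists cover are not reported here. Alternatives changed the background correction, the scaling, the source of values (the matrix), filters, probe rules, blocks, moderation, weights, threshold, left-out arrays and the other saline group. The 7 genes, the lists and the alternatives were chosen with earlier results of these data known.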

Additional observations from a re-analysis of the deposited data

Results flagged for a closer look

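The LPS response at 24 h differed from that at 4 h, by a test of the difference itself (limma, adjusted p from 6.25e-09 to 0.00113), for 11 of the 15 probes, where 65.9% of all probes were called. With normexp background correction the dimmer Lss probes A_51_P296487 and A_52_P168028 did not pass (limma, adjusted p = 0.131 and 0.498). Nor did Hmgcs1 A_52_P119039, whose sign changed (0.0827, adjusted p = 0.875). On the log2 scale, 24 h minus 4 h, the difference was -1.608 for Hmgcs1 A_51_P146941, -2.627 for Hmgcs1 A_52_P388072 and -0.9162 for Hmgcs1 A_52_P119039, the last below background at 4 h. It was -1.952 for Idi1 A_52_P441634, -1.299 for Insig1 A_51_P290207 and -0.7772 for Lss A_52_P118161. Positive differences were 0.3345 for Sqle A_51_P450487, 0.3474 for Fdft1 A_51_P485946, 2.043 for Fdft1 A_52_P136138, 0.7678 for Lss A_51_P296487 and 0.5757 for Lss A_52_P168028. Dim probes gave smaller differences with normexp: -1.33 for Hmgcs1 A_52_P388072, -0.90 for Idi1 A_52_P441634, -0.70 for Insig1 A_51_P290207 and 0.88 for Fdft1 A_52_P136138. The bright Hmgcs1 A_51_P146941 gave -1.58. All 4 groups enter each value, and the saline 4 h arrays, which stood apart in intensity, are among them. The part of scan run, which changed with time, was not tested.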

How the results depend on the processing

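The counts of probes of the 7 genes called (6 higher and 7 lower at 4 h, 1 and 7 at 24 h, 5 and 6 for the difference between times) and of all probes called (19659, 11547 and 18251, and 22001 between saline groups) were recomputed under each alternative. With normexp background correction, 4 probes were lower at 4 h, 0 higher and 3 lower at 24 h, and 3 higher for the difference between times, and 11983, 4100 and 10147 of all probes were called. The deposited matrix gave 4 lower at 4 h and 0 higher at 24 h. The 1 probe higher at 24 h became 0 with quantile normalization, median scaling, no filter, trended robust moderation or a threshold of 0.01, and 2 with probes above background on all 12 arrays. With 1 brightest probe a gene the counts were 3 and 4 at 4 h, 0 and 4 at 24 h, 2 and 3 between times. With probes averaged they were 3 and 4, 0 and 3, 3 and 3, with 12801, 7686, 11928 and 14309 of all genes called. Against the other saline group 9 were higher at 24 h and 22122 of all probes were called there.

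Leaving out 1 array gave 6 to 6 higher and 7 to 8 lower at 4 h, 0 to 1 and 6 to 7 at 24 h, and 5 to 5 and 6 to 6 between times. Of all probes, 18731 to 19848, 9993 to 11798, 17528 to 18237 and, between saline groups, 21181 to 22092 were called.

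Values also changed sign. With normexp, Hmgcs1 A_52_P119039 was -0.0705 at 4 h and 0.0827 between times. Averaging probes gave Idi1 0.61 at 4 h and -0.95 between times, Lss -0.16, 0.0278 and 0.19 at 4 h, at 24 h and between times, and Mylip 0.0185 at 4 h. Against saline 24 h the 4 h values were -0.16 for Hmgcs1 A_52_P119039, 0.24 and -0.73 for Idi1, -0.32 for Insig1, 1.23 for Fdft1 A_52_P136138, 0.46 for Fdps A_52_P593965, 0.59 for Acat2, -0.73 for Stard4, 0.16 for Npc1, 1.21 for Mylip, 0.44 for Mbtps1, 0.20 for Me1 and 0.0019 for Coq2. Against saline 4 h the 24 h values were 0.66 and 1.23 for Hmgcs1, 1.69 for Idi1 A_52_P441634, 1.55 for Insig1, -2.82 for Fdft1 A_52_P136138, 0.18 for Lss A_52_P118161, -1.79 for Ch25h, -0.26 for Npc2, -0.12 for Nr1h3, -0.89 for Srebf1 and 0.27 for Tm7sf2. The cause of these changes was not tested.

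Scaling by the median moved the median of all probes from -0.08 to -0.25 at 4 h and the share of higher among called probes from 44.5% to 32.8%, and at 24 h from 49.8% to 29.9%. The share was 34.4% at 4 h with no filter, and between saline groups it was 47.8%, and 26.4% with normexp, 33.7% with no filter and 58.2% with the percentile over probes detected on all arrays.

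Same-numbered saline and LPS samples deviated together little (correlations 0.08, 0.17 and -0.15 at 4 h, 0.03, 0.08 and 0.07 at 24 h). Same-numbered arrays shared a slide at 24 h but not at 4 h. From 3 arrays a group such correlations cannot tell whether the numbers pair samples, so a block by number was an alternative. With the replicate block, 19382 and 10864 of all probes were called at 4 h and 24 h, and the counts for the 7 genes were 6 and 7, 1 and 7, while at 24 h Lss A_52_P168028 lost its call (limma, adjusted p = 0.0573) and A_51_P296487 gained one (adjusted p = 0.0380). Dim probes are limited by background, since the lowest signal called well above it lay between -6.59 and -4.72 over the arrays.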
